A study of Mus musculus with 6 samples.

Results

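The genes described here are *Ptbp1* and 9 genes of heterogeneous nuclear ribonucleoproteins (hnRNPs): *Hnrnpa1*, *Hnrnpa2b1*, *Hnrnpc*, *Hnrnpd*, *Hnrnph1*, *Hnrnpk*, *Hnrnpl*, *Hnrnpm* and *Hnrnpu*. They were taken by name, and every intron and transcript listed under their gene identifiers was used. They held 79 of the 85015 introns listed in any library and 147 of the 116873 transcripts in the long-read tables. The cells were E14 mouse embryonic stem cells (129/Ola background), a single cell line grown in serum with leukemia inhibitory factor. All groups were transfected with an siRNA by Lipofectamine 2000, either a control siRNA or one against *Son*, and RNA was taken 24 hours later. Total RNA depleted of ribosomal RNA was read from 2 samples per group, and Nanopore long-read cDNA of polyadenylated RNA from 1 sample per group. The labels do not say whether the samples of a group came from separate cultures, so p-values measure only the spread between these samples.

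hnRNPs are abundant nuclear proteins that bind nascent transcripts and influence which exons and splice sites are used. PTBP1 binds pyrimidine-rich RNA and is best known for repressing exons, HNRNPC binds uridine tracts near splice sites, and HNRNPA1 often opposes SR proteins. Many of these genes have alternative exons of their own and transcripts that are degraded by nonsense-mediated decay, through which such proteins adjust their own levels. SON is a large protein of nuclear speckles that promotes splicing of introns with weak splice sites.

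The knockdown was seen in both assays. Levels are given as CPM, the reads of a gene scaled to the library's total. *Son* had a spliced-read level of 273 and 306 CPM in control samples against 92.1 and 101 after knockdown, a log2 fold change of -1.61 (SE 0.087). It had 217 long reads in the control and 37 in the knockdown. The 2 knockdown samples of total RNA differed from each other more than the 2 controls did, with a chi-square per degree of freedom of 9.19 against 2.90 over genes. The total RNA samples held between 10556187 and 16012286 split reads at donor sites, and the long-read libraries 3080426 (control) and 1874851 (knockdown). Of 10 pluripotency markers, 9 had listed introns, with a summed level of 3775 to 3984 CPM over the 4 libraries. Of 5 markers each of endoderm, trophoblast and fibroblast feeders, 2, 2 and 1 had listed introns, with summed levels between 1.14 and 9.96 CPM. Of 5 neural markers, 4 had listed introns, with a summed level of 70.0 to 84.8 CPM. *Tubb3* alone held 65.6 to 80.4 CPM of this, and *Pax6* and *Nes* at most 3.10 each. *Neurod1* had 0 CPM in all 4 libraries, with 20 and 6 long reads. The trophoblast marker *Elf5*, with no listed intron, had 30 and 24 long reads, and *Sox17*, *Foxa2*, *Afp*, *Cdx2*, *Hand1*, *Col1a1*, *Col1a2* and *Col3a1* had no long read in either library.

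Splice choice differed in 2 of the 10 genes, *Ptbp1* and *Hnrnpc*, by an edgeR test devised after these patterns had been seen, and neither was called by limma or without a minimum share of reads. The splicing efficiency of no intron passed its test. The exon sequences at stake are shown first. They come from the GENCODE M21 transcripts (GRCm38), were matched by transcript name, and run 5′ to 3′. In *Ptbp1* a 78-nt exon, in capitals, is either joined to its neighbours or skipped, and 18 nt of each neighbouring exon are shown in lower case.
Ptbp1-216, with the exon: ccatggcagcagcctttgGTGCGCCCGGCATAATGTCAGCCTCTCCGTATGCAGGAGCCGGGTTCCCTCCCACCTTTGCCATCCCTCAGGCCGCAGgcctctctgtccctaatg
Ptbp1-206, without it: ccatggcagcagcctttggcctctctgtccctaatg
The exon adds 78 nt to the coding length (1665 against 1587 nt), which is 26 codons and keeps the reading frame. It lies between the second and the third RNA-binding domain of the protein, and its skipping is known to give a form that represses some target exons less.

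In *Hnrnpc* the same donor site can be joined to 3 acceptor sites. Capitals mark the 21 nt that only the first acceptor keeps and, in the second form, the 3 nt that separate the second acceptor from the last.
Hnrnpc-205, first acceptor: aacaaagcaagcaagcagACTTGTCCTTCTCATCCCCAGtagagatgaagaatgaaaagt
Hnrnpc-211, second acceptor: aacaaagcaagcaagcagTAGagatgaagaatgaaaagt
Hnrnpc-206, last acceptor: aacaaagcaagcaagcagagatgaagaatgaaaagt
The 21-nt segment is 76.2% pyrimidines, and it and the 3-nt segment both end in AG, the letters that end an intron. The forms have coding lengths of 900, 879 and 876 nt, so all 3 keep the reading frame.

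The deposited tables count split reads separately at the 5′ and the 3′ junction of each intron. Where more split reads leave a donor than arrive at the listed acceptor, the surplus was spliced elsewhere, so the 2 columns together show splice choice. The edgeR test sets the reads matched at the other junction against those that are not. Its first forms called no intron of any gene, and the requirement that each class hold at least 5% of the reads was added after that. Without it the edgeR adjusted p of the 3 introns described next was 0.342 to 0.425, with log2 odds ratios of -1.56 (*Hnrnpc*), 1.27 and 1.22 (*Ptbp1*). limma on log odds called no intron of any gene either, with adjusted p of 0.280 to 0.393 for these 3.

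The 78-nt *Ptbp1* exon was included less after *Son* knockdown. It lies on chromosome 10 (GRCm39, chr10:79695951-79696028, plus strand), between coding exons. Of the split reads at its outer neighbours' junctions, 1435 of 2824 and 945 of 1890 joined this exon in the controls, against 897 of 2793 and 640 of 2290 in the knockdown. As shares these were 50.8% and 50.0% in the controls against 32.1% and 27.9% in the knockdown, so both knockdown samples lay below both controls. The means were 50.4% ± 0.576 and 30.0% ± 2.95 (SD, n = 2 each), and inclusion fell by 20.4 percentage points.

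The intron upstream of the exon (chr10:79695790-79695950, 161 nt) and the one downstream (chr10:79696029-79696657, 629 nt) were tested separately. At the upstream intron, 52.0% and 50.2% of donor reads reached the listed acceptor in the controls against 33.1% and 27.3% in the knockdown. The log2 odds ratio of skipping was 1.27 (SE 0.192, 95% interval 0.866 to 1.68) with an edgeR adjusted p of 6.9e-04. At the downstream intron it was 1.22 (SE 0.181, 95% interval 0.834 to 1.60) with an edgeR adjusted p of 5.9e-04. Reads that skip the exon are counted at both introns, so these are not separate pieces of evidence.

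Long reads count whole transcripts of *Ptbp1*. Of 781 control reads on transcripts that either hold or skip the exon, 395 held it, which is 50.6% (95% Wilson interval 47.1 to 54.1). In the knockdown 158 of 534 did, which is 29.6% (25.9 to 33.6). Ptbp1-216, the main form with the exon, went from 363 to 148 reads, a log2 ratio of CPM of -0.58. Ptbp1-206, the main form without it, went from 325 to 311 reads, a log2 ratio of 0.65 given the smaller knockdown library, and Ptbp1-202, another form without it, from 49 to 55 (0.88). With 1 library per group these intervals cover counting error only and there is no replicate check.

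*Hnrnpc* moved towards the first of its 3 acceptors. The intron (chr14:52312894-52313069, minus strand, 176 nt) lies between coding exons. At its donor, 403 of 820 and 292 of 579 split reads reached the first acceptor in the controls, against 630 of 833 and 544 of 742 in the knockdown. These are 49.1% and 50.4% in the controls against 75.6% and 73.3% in the knockdown, with both knockdown samples above both controls. The means were 49.8% ± 0.909 and 74.5% ± 1.64 (SD, n = 2 each), a rise of 24.7 percentage points. The log2 odds ratio of another acceptor was -1.56 (SE 0.210, 95% interval -2.0 to -1.11), with an edgeR adjusted p of 2.6e-04.

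In long reads the first acceptor of *Hnrnpc* took 831 of 1456 control reads, 57.1% (95% Wilson interval 54.5 to 59.6), and 720 of 925 knockdown reads, 77.8% (75.0 to 80.4). The second acceptor went from 490 to 166 reads (33.7% to 17.9%) and the last from 135 to 39 (9.27% to 4.22%). All 4 transcripts with the first acceptor had positive log2 ratios, from 0.37 (Hnrnpc-201, 169 to 133 reads) to 0.67 (Hnrnpc-202, 128 to 124 reads). The 4 with a later acceptor had negative ones, from -1.06 (Hnrnpc-206, 135 to 39 reads) to -0.20 (Hnrnpc-210, 44 to 23 reads). The most read form of each kind, Hnrnpc-205 (first acceptor) and Hnrnpc-211 (second acceptor), went from 456 to 395 and from 285 to 91 reads.

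Another choice in the same gene, the donor that ends either a 76-nt or a 115-nt exon and separates the well-known C1 and C2 forms of the protein, had other values. The 115-nt exon was in 458 of 1457 control long reads, 31.4% (95% Wilson interval 29.1 to 33.9), and in 309 of 925 knockdown reads, 33.4% (30.4 to 36.5). These intervals overlap, unlike those of the acceptor choice. At the 481-nt intron after the longer exon, 34.8% and 38.3% of the split reads at the acceptor came from the listed donor in the controls against 36.7% and 34.7% in the knockdown, and the groups overlapped (log2 odds ratio of another donor 0.041, 95% interval -0.513 to 0.596).

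**Figure D1:**
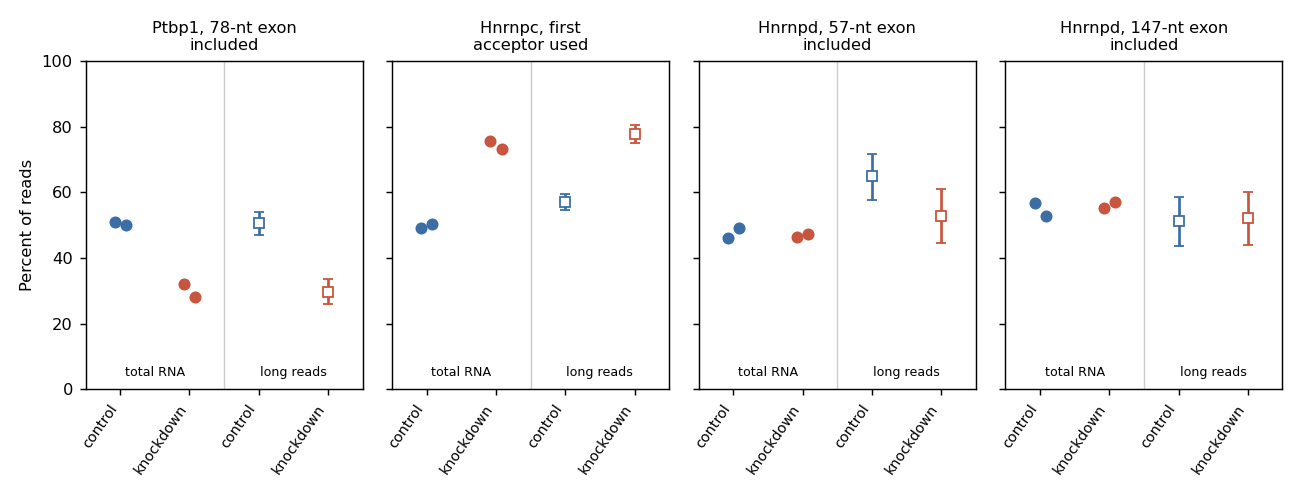
Percent of reads that include an exon or use the first acceptor, for 4 splice choices in 3 genes. Filled points are the 2 control (blue) and 2 knockdown (red) total RNA samples, open squares are the long-read samples with 95% Wilson intervals. *Ptbp1* inclusion falls from 50.4% to 30.0% and *Hnrnpc* first-acceptor use rises from 49.8% to 74.5% in total RNA, while both *Hnrnpd* exons differ by at most 1.36 percentage points in total RNA.

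Across the 10 genes, 22 introns had enough reads on both sides of such a choice to be tested, at least 1 in each gene. The 3 described above were called at an adjusted p under 0.05, against 4.13% of the 9763 introns tested in all genes. At an unadjusted p under 0.05 by edgeR there were 5 of the 22. The share of all introns at that threshold was not worked out, so this count has no background.

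The 2 introns with an unadjusted p under 0.05 that were not called lie in *Hnrnph1*. At its 586-nt intron of the 3′ UTR, 93.1% and 91.1% of acceptor reads came from the listed donor in the controls against 94.3% and 96.1% in the knockdown (edgeR adjusted p 0.200). At its 488-nt intron of the 5′ UTR, 88.5% and 83.1% of donor reads reached the listed acceptor in the controls against 97.7% and 92.2% in the knockdown (edgeR adjusted p 0.249), on 3 to 20 unmatched reads per library. Both knockdown samples lay above both controls at both introns. The share of all introns tested for splice choice with such a pattern was not worked out.

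Among the other genes, *Hnrnpd* has a pair of alternative exons whose combinations give the AUF1 isoforms of the protein. Its 57-nt exon was included in 46.1% and 49.0% of control reads and in 46.5% and 47.2% of knockdown reads. Its 147-nt exon was included in 56.7% and 52.9% of control reads and in 55.2% and 57.1% of knockdown reads. The groups overlapped in both, and the 95% intervals of the log2 odds ratios at the flanks of the 147-nt exon ran from -0.354 to 0.524 and from -0.563 to 0.251. In long reads the 57-nt exon was in 64.9% (95% Wilson interval 57.5 to 71.7) of 171 control reads and 52.9% (44.6 to 61) of 138 knockdown reads, and the 147-nt exon in 51.2% of 172 and 52.1% of 144.

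Splicing efficiency, the share of split among all reads over both junctions of an intron, was tested in 78 introns of the 10 genes. No intron was called by edgeR at an adjusted p under 0.05, against 1.76% of the 63309 introns tested in all genes. At an unadjusted p under 0.05 by edgeR there were 2 of the 78, a count for which no share of all introns was worked out. DESeq2 called none of the 78 and 285 of the 62081 introns to which it gave an adjusted p, and limma called no intron of any gene. The smallest adjusted p was 0.121. The median change in mean efficiency was -0.0048 over the 78 introns and -0.0042 over all introns tested. Both knockdown samples lay below both controls in 19 introns, 24.4%, against 24.3% of all introns, and above both in 8, 10.3%, against 13.1%. The upper end of the 95% interval of the log2 odds ratio of unsplit reads was below 1, a doubling of the odds, in 56 of the 78 introns, and the intervals of the other 22 include a doubling. The introns of these genes were short, with a median length of 379 nt against 1128 nt over all introns tested, and well covered, with a median of 1396 reads per library against 201.5. In introns of up to 300 nt the median change was -0.0057 over 33 introns of these genes and -0.015 over all 13205, of which 6.40% were called for lower efficiency. In introns over 300 nt it was -0.0044 over 45 introns of these genes and -0.0022 over all 50104. Of those 50104, 0.477% were called for lower efficiency.

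**Figure D2:**
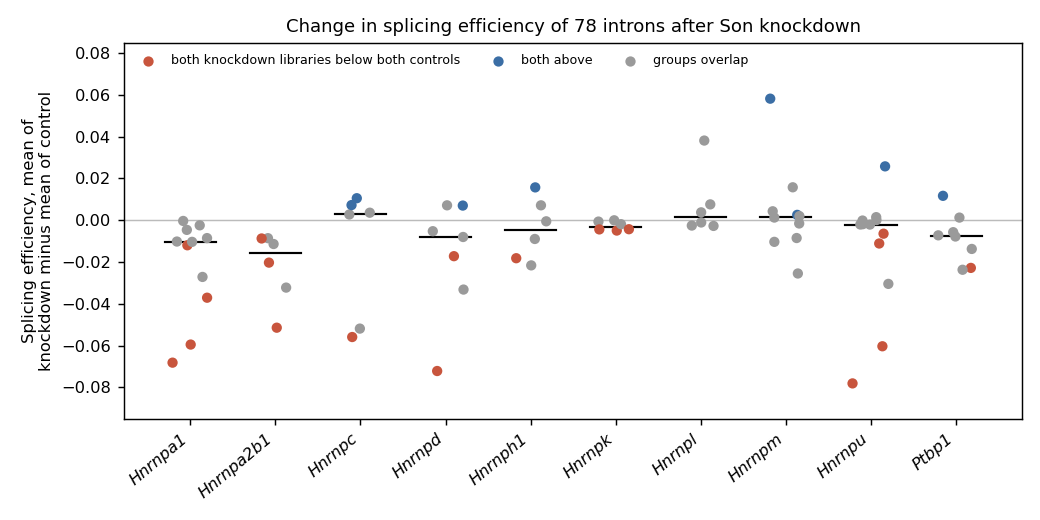
Change in splicing efficiency (mean of 2 knockdown minus mean of 2 control samples) for the 78 tested introns, by gene, with the median of each gene as a bar. Red points are introns with both knockdown samples below both controls (19) and blue points those with both above (8); changes run from -0.0781 to 0.0582.

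The 2 introns with an unadjusted p under 0.05 went in opposite directions. A 1044-nt intron of *Ptbp1* (chr10:79692369-79693412) had efficiencies of 0.979 and 0.973 in the controls against 0.986 and 0.989 in the knockdown, a log2 odds ratio of unsplit reads of -0.95 (SE 0.320; edgeR adjusted p 0.121). It was called where split and unsplit reads were scaled separately (edgeR adjusted p 0.0208), and its direction turned when the 5′ junction alone was used (0.74). The listed acceptor of this 1044-nt intron was almost unused. It took 3 of 3942 and 3 of 2631 split donor reads of the control samples. After knockdown it took 1 of 4112 and 0 of 2987. Nearly all split reads at the donor were thus spliced elsewhere, so these efficiencies do not show how often this intron was removed. A 481-nt intron of *Hnrnpc* (chr14:52318765-52319245) had 0.926 and 0.922 in the controls against 0.908 and 0.828 in the knockdown, a log2 odds ratio of 0.82 (SE 0.400; edgeR adjusted p 0.474). This was 1.34 without knockdown replicate 1 and 0.30 without knockdown replicate 2. The introns beside the 78-nt *Ptbp1* exon and at the *Hnrnpc* acceptors kept overlapping efficiencies, 0.906 and 0.876 against 0.897 and 0.887 for the 161-nt *Ptbp1* intron.

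The introns with the lowest efficiency in *Hnrnpa1* and *Hnrnpa2b1* lay in the 3′ UTR, and their listed donors were unused or little used. In *Hnrnpa1* a 379-nt intron of the 3′ UTR (chr15:103154394-103154772) had an efficiency of 0.188 and 0.148 in the controls against 0.0577 and 0.141 in the knockdown, on 6 split reads in the first knockdown sample. Its donor had 0 split reads in every sample, so the split reads at its acceptor came from other donors. In *Hnrnpa2b1*, which codes for a close relative of HNRNPA1, a 486-nt intron of the 3′ UTR (chr6:51438414-51438899) had 0.339 and 0.317 against 0.312 and 0.241. Of the split reads at its acceptor, 16.4% and 10.8% came from the listed donor in the controls, against 20.3% and 17.7% in the knockdown. A low efficiency of these introns therefore cannot be told apart from a donor that few transcripts use. In *Hnrnpl*, whose protein binds CA repeats, the 2110-nt first intron had 0.713 and 0.687 against 0.806 and 0.670. In *Hnrnpm* a 6061-nt intron had 0.722 and 0.698 against 0.735 and 0.634. The groups did not overlap in the *Hnrnpa1* and *Hnrnpa2b1* introns and overlapped in the others, and none passed the test.

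The largest falls in mean efficiency within a gene were in *Hnrnpu*, which codes for a nuclear scaffold protein, and in *Hnrnpd*. A 245-nt *Hnrnpu* intron (chr1:178157912-178158156) went from 0.833 and 0.795 to 0.752 and 0.720, and a 258-nt intron of a noncoding *Hnrnpu* model from 0.749 and 0.680 to 0.647 and 0.661. The listed donor of this 258-nt intron had at most 2 split reads per library, so its efficiency does not show how often it was removed. A 1220-nt *Hnrnpd* intron went from 0.784 in both controls to 0.756 and 0.667. The largest rise was in a 90-nt *Hnrnpm* intron (chr17:33888053-33888142), from 0.896 and 0.905 to 0.955 and 0.962. The smallest changes were in *Hnrnpk*, which codes for a poly(C)-binding protein. Its 379-nt, 567-nt and 113-nt introns, the ones with the largest fall, the highest value of the change and the lowest efficiency, changed by -0.00494, -2.67e-05 and -6.40e-04.

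Of the other introns at the extremes of a gene, none passed the test. In *Hnrnpa1* no mean efficiency was higher in the knockdown, and its 81-nt intron was nearest to 0 with a change of -3.43e-04. In *Hnrnpa2b1* none was higher either, and its 90-nt intron changed by -0.00859. In *Hnrnpc* the 94-nt intron had its highest change, from 0.964 and 0.952 to 0.972 and 0.966. The 5344-nt intron of the 5′ UTR had the lowest efficiency, with 0.839 and 0.756 against 0.793 and 0.698. Its listed acceptor was little used. It took 4 of 74 and 9 of 56 split donor reads of the control samples. After knockdown it took 0 of 46 and 2 of 28. Most split reads at this donor were thus spliced elsewhere, so these efficiencies do not show how often the 5344-nt intron was removed. In *Hnrnpd* a 586-nt intron changed by 0.00714. In *Hnrnph1* the 488-nt intron of the 5′ UTR was the least efficient and changed by -0.0216, while an 84-nt intron changed by 0.0157. The largest fall in *Hnrnpl*, in a 110-nt intron, was -0.00272, the highest value in *Hnrnpu*, in a 424-nt intron of a noncoding model, was 0.0258, and the largest fall in *Ptbp1*, in a 108-nt intron, was -0.0237.

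Summed over all introns of a gene, the log2 odds ratio of unsplit reads was positive in 7 genes and negative in 3, and none was called, against 7.11% of the 9370 genes tested. None had an unadjusted p under 0.05 by edgeR. DESeq2 called none of the 10 and 503 of the 9006 genes to which it gave an adjusted p, and limma called no gene at all. The 95% intervals of the 10 genes lay between -0.635 and 0.760, all short of a doubling of the odds. The largest value was that of *Hnrnpa2b1*, 0.33 (SE 0.218; edgeR adjusted p 0.623), which was 0.54 without knockdown replicate 1 and 0.12 without knockdown replicate 2. Its efficiency was 0.849 and 0.856 in the controls against 0.842 and 0.799 in the knockdown. *Hnrnpc* had the lowest value, -0.20 (SE 0.222), with 0.956 and 0.945 against 0.961 and 0.952. The median over the 10 genes was 0.16 and over all genes 0.085.

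Spliced reads, the split reads at 5′ junctions summed per gene, stand for the amount of spliced RNA. Fewer cells expressing a gene and less RNA per cell cannot be told apart in these bulk samples. *Hnrnpa1* fell, with 358 and 373 CPM in the controls against 318 and 289 in the knockdown, a log2 fold change of -0.29 (SE 0.075; edgeR adjusted p 0.0163). Both knockdown samples lay below both controls. This call was lost without control replicate 1 (edgeR adjusted p 0.186), without control replicate 2 (0.368) and with the best covered intron alone (0.386). It was the only one of the 10 genes called, against 6.76% of the 9474 genes tested that fell and 1.96% that rose.

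*Hnrnpa2b1* had 277 and 299 CPM in the controls against 261 and 233 in the knockdown, a log2 fold change of -0.24 (SE 0.080; edgeR adjusted p 0.0686). *Hnrnpd* and *Hnrnph1*, whose protein binds G-rich RNA, had log2 fold changes of -0.19 and -0.18 (SE 0.074 and 0.080; edgeR adjusted p 0.131 and 0.201). For these 3 genes both knockdown samples lay below both controls. The same held for *Hnrnpa1*, *Hnrnpk*, *Hnrnpl*, *Hnrnpm* and *Hnrnpu*, so it does not set the 3 apart. The share of all genes with this pattern was not worked out. *Ptbp1* had 843 and 883 CPM in the controls against 914 and 870 in the knockdown, a log2 fold change of 0.025 with a 95% interval of -0.112 to 0.162. *Hnrnpc* had a log2 fold change of 0.027 with a 95% interval of -0.131 to 0.185. Both genes were called for splice choice, by the edgeR test devised after their patterns had been seen. Their intervals of spliced reads exclude a fold change of 0.2 on the log2 scale in either direction. Over the 10 genes the median log2 fold change was -0.12, against 0.0054 over all genes.

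**Figure D3:**
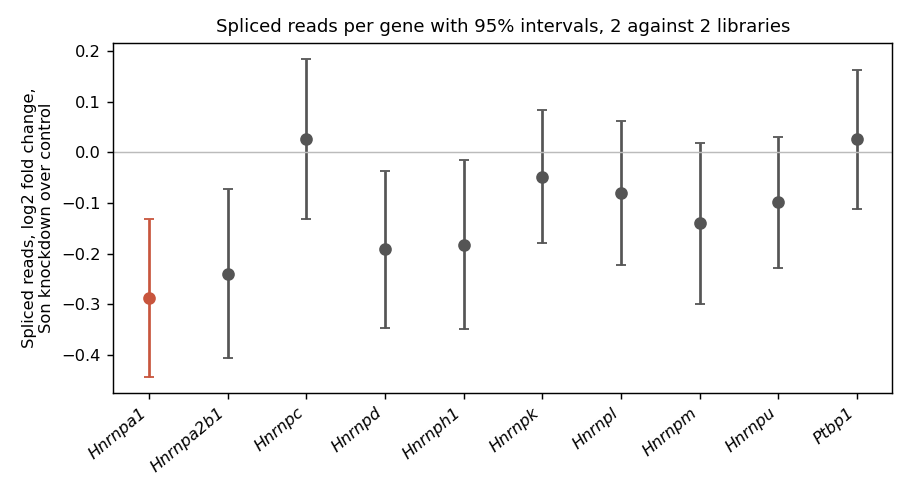
Log2 fold change of spliced reads (knockdown over control) for each of the 10 genes, with 95% intervals from edgeR on 2 against 2 samples. *Hnrnpa1* (red, -0.29) is called; *Ptbp1* (0.025) and *Hnrnpc* (0.027) lie close to 0.

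In long reads the 10 genes had 11161 reads in the control and 6775 in the knockdown, 3623 and 3614 CPM. Log2 ratios of the genes ran from -0.42 in *Hnrnpl* (456 to 207 reads) to 0.44 in *Hnrnpd* (175 to 144 reads). *Hnrnpa1* had 826 CPM in the control (95% Wilson interval 794 to 859) and 756 in the knockdown (718 to 796), and *Hnrnpa2b1* 687 and 723. The sign for *Hnrnpa1* was that of the total RNA, whereas in 4 genes, *Hnrnpa2b1*, *Hnrnpd*, *Hnrnph1* and *Hnrnpm*, it was the opposite.

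Of the 147 transcripts, 61 had at least 20 long reads over both samples. None was at least 2-fold higher and 2 were at least 2-fold lower in the knockdown, against 3.32% higher and 5.8% lower of the 13807 transcripts with that many reads. One was Hnrnpc-206, described above. The other, Hnrnpa1-205, went from 52 to 12 reads, a log2 ratio of -1.35. It lacks a 156-nt exon that all other *Hnrnpa1* transcripts with reads hold, so reads without this exon were 2.04% (95% Wilson interval 1.56 to 2.67) of the control's and 0.847% (0.485 to 1.47) of the knockdown's. The 159-nt exon that makes the longer A1B form of the protein was in 19.0% and 18.7% of the reads on transcripts that hold or skip it. In total RNA the 203-nt intron before this exon was listed in 3 libraries and was not tested. Its donor had 755 and 622 split reads in the controls and 668 in knockdown replicate 1. The exon's acceptor had 15, 19 and 20 split reads, fewer than its donor at the other flank. At the acceptor of the 544-nt intron after this exon, 10.01% and 6.10% of the split reads came from the exon's donor in the controls, against 7.59% and 2.47% in the knockdown. The groups overlapped, and the log2 odds ratio of another donor was 0.64 (SE 0.396; edgeR adjusted p 0.572). Without knockdown replicate 1 it was 1.79 and called (edgeR adjusted p 0.0159), and without knockdown replicate 2 it was 0.11 (0.953). The median log2 ratio over the 61 transcripts was 0.060 and over all transcripts 0.0027.

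*Hnrnpm*, whose protein binds G- and U-rich RNA, showed a further difference, picked after its values were seen. Its main transcripts differ, among other parts, by a 117-nt stretch that is either spliced out or kept within an exon. It was spliced out in 312 of 559 control reads, 55.8% (95% Wilson interval 51.7 to 59.9), and in 162 of 369 knockdown reads, 43.9% (38.9 to 49.0). Hnrnpm-201, which lacks the stretch, went from 296 to 147 reads and Hnrnpm-206, which keeps it, from 227 to 193. The junction reads of this stretch were not analysed here, so no replicated value stands beside it.

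In the remaining genes none of the most read forms was 2-fold apart. In *Hnrnpa1*, Hnrnpa1-202 held 70.9% of the control's reads and 70.9% of the knockdown's (1803 and 1004 reads), and Hnrnpa1-201 12.2% and 10.4%. In *Hnrnpa2b1*, Hnrnpa2b1-203 and Hnrnpa2b1-204 held 22.7% and 19.5% in the control, and Hnrnpa2b1-203 21.3% in the knockdown, with log2 ratios of -0.02 and 0.11. *Hnrnpk* (Hnrnpk-201 and Hnrnpk-224), *Hnrnph1* (Hnrnph1-201 and Hnrnph1-203), *Hnrnpl* (Hnrnpl-211 and Hnrnpl-201) and *Hnrnpu* (Hnrnpu-201) had leading forms with log2 ratios between -0.65 and 0.43. The lowest was that of Hnrnpl-211, which went from 145 to 56 reads. In *Hnrnpd*, Hnrnpd-211 went from 61 to 45 reads (34.9% and 31.3% of the gene's reads) and Hnrnpd-201 from 49 to 28 (28.0% and 19.4%). Hnrnpd-202 went from 33 to 39 reads (18.9% and 27.1%), and its log2 ratio of 0.95 was the highest of the 61 transcripts.

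**Figure D4:**
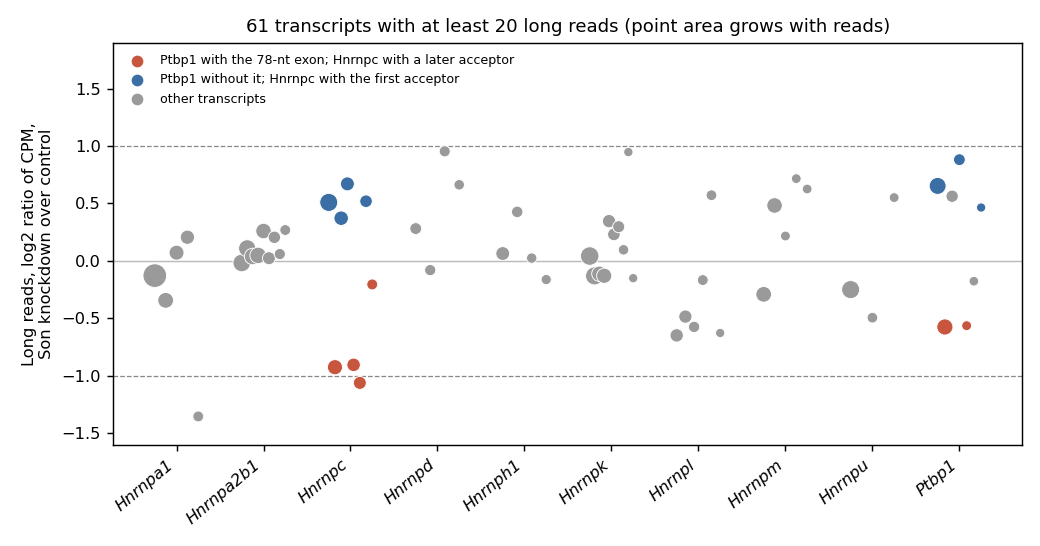
Log2 ratio of long-read CPM (knockdown over control, 1 sample each) for the 61 transcripts with at least 20 reads, by gene; dashed lines mark a 2-fold difference. *Hnrnpc* and *Ptbp1* transcripts split by the exon form they hold, with the later *Hnrnpc* acceptors between -1.06 and -0.20 and the first acceptor between 0.37 and 0.67.

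Transcript models annotated as retaining an intron or as targets of nonsense-mediated decay took 9.38% (1047 of 11161) of the 10 genes' control reads and 9.93% (673 of 6775) of their knockdown reads. Over all annotated transcripts the shares were 7.66% and 8.12%. The share was 14.9% and 17.9% in *Hnrnpa1*, where the decay models Hnrnpa1-203 and Hnrnpa1-204 had log2 ratios of 0.07 and 0.21. It was 17.1% (95% Wilson interval 13.9 to 20.8) and 23.2% (17.96 to 29.4) in *Hnrnpl*, where the decay model Hnrnpl-213, with a 70-nt exon but without a 119-nt exon of Hnrnpl-211, went from 31 to 28 reads. It was 13.6% and 13.7% in *Hnrnpa2b1* (with Hnrnpa2b1-211 at 107 and 66 reads and Hnrnpa2b1-207 at 80 and 56), 15.6% and 15.7% in *Ptbp1* (Ptbp1-213 at 69 and 62, Ptbp1-205 at 25 and 10) and 10.5% and 7.51% in *Hnrnpu* (Hnrnpu-206 at 40 and 17). Retained-intron models of *Hnrnpk* (Hnrnpk-204 at 31 and 20 reads, Hnrnpk-217 at 11 and 13), *Hnrnpl* (Hnrnpl-212 at 16 and 6) and *Hnrnpm* (Hnrnpm-213 at 16 and 16) held few reads. *Hnrnph1* has no model of either kind, so it could have no such read. *Hnrnpc* had 1, in the knockdown. The Wilson intervals of control and knockdown overlapped for every gene that has such a model.

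Among 28 other genes of hnRNPs and related RNA-binding proteins, 26 were tested. For splice choice, 2 of their 31 tested introns had an unadjusted p under 0.05 by edgeR, a threshold without a share of all introns here. None of the 31 was called by edgeR, against 4.13% of all introns tested. DESeq2 called none of them and 307 of 9763 in all, and limma called no intron of any gene. In spliced reads 2 of the 26 fell and 1 rose, shares near the 6.76% and 1.96% of all genes tested. *Khsrp*, a KH-domain regulator of splicing and RNA decay, fell with a log2 fold change of -0.31 (SE 0.072, edgeR adjusted p 0.00657). It was the only 1 of the 26 called for lower splicing efficiency (log2 odds ratio 0.85, SE 0.225, edgeR adjusted p 0.00368). Over all genes tested, 7.11% were called for splicing efficiency in either direction. *Hnrnpdl*, the paralog of *Hnrnpd*, fell with -0.36 (SE 0.108; edgeR adjusted p 0.0367). *Ptbp2*, the paralog of *Ptbp1* known from neurons, rose from 18.2 and 20.02 to 26.0 and 28.9 CPM, a log2 fold change of 0.50 (SE 0.149; edgeR adjusted p 0.0382). Leaving out either control sample ended all 3 of these calls in spliced reads, with edgeR adjusted p of 0.110 to 0.569. With DESeq2 the adjusted p was 0.0625 for *Hnrnpdl* and 0.0733 for *Ptbp2*, and *Ptbp2* was also lost without knockdown replicate 2 (edgeR adjusted p 0.0674). The efficiency call of *Khsrp* was lost without control replicate 1 (edgeR adjusted p 0.444) and without knockdown replicate 2 (0.196). The median log2 fold change of the 26 genes was -0.084.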

How the data were processed

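Samples were grouped by the treatment in the labels. Each total RNA table, per the labels made with SPLICE-q, gives every intron's junction counts (reads split or unsplit at either end) and the authors' score, a fraction equal to the split share. The submitters' processing notes name GRCm39, minimap2 and SAMtools. Every listed junction had at least 10 reads. Long-read tables hold the authors' counts per transcript. Strand handling is not given in the sources used here. Both long-read descriptions name the same knockdown sample as starting material, so the long-read and total RNA samples may share RNA.

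The 4 tables were reduced to unique introns listed in all 4 libraries. The main test was the edgeR 4.0.16 quasi-likelihood test (R 4.3.3) with a term per library, for unsplit reads and for unsplit reads in the knockdown, on introns with at least 10 split and 10 unsplit reads, adjusted by Benjamini-Hochberg over all introns. The same model was fitted to sums per gene. Spliced reads per gene were tested with TMM. Splice choice compared, at the busier junction, reads matched and not matched at the other junction. An earlier form, which set the 5′ and 3′ columns against each other, shared reads between columns and called nothing. Long-read ratios used a pseudocount of 0.5 and at least 20 reads. Wilson intervals came from scipy 1.17.1. DESeq2 1.42.0 and limma 3.58.1 were alternatives. The tests were tested on simulated data. Transcript names, types and sequences came from GENCODE M21 by identifier. So did the exon and coding structure used for coding lengths and for placing introns in UTRs or between coding exons. No printed position was taken from it. The genes named are the 10 members, *Son*, single cell type markers and the members of the other hnRNP list called. Introns named are those called, those with the largest fall, the largest rise and the lowest efficiency of a gene. Transcripts named are the 2 most read of a gene, those 2-fold apart, and decay or retained-intron models. Ptbp1-202, Hnrnpc-201, Hnrnpc-202, Hnrnpc-210, Hnrnpd-202 and the *Hnrnpm* stretch fall outside this rule and were chosen after their values were seen. The same holds, for splice choice, of the *Hnrnph1* 586-nt intron and the *Hnrnpa1* 203-nt and 544-nt introns. The members and lists were chosen with earlier results of these data known. Same-numbered samples did not deviate together (correlation 0.0085 over introns), so the numbers were not used as pairs.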

Additional observations from a re-analysis of the deposited data

How the results depend on the processing

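Log2 values below are odds ratios of unsplit reads unless said otherwise, and the cause of a change was not tested. In splicing efficiency, 1 intron was called with separate scaling and 1 with the replicate block (in both the 1044-nt *Ptbp1* intron), 1 gene was called with the replicate block (*Hnrnpa2b1*), and no other alternative called any. The listed acceptor of the 1044-nt *Ptbp1* intron was almost unused, so these calls do not show a change in its removal. In spliced reads, 2 genes were called with 3′ junctions, 2 with the replicate block and 0 with the best covered intron. Leaving out 1 sample changed which genes were called, and the *Hnrnpa1* call was lost without either control sample. The shares of all genes called under these settings are not given here, so these counts have no background. In splice choice, the 3 introns were lost with limma (0 called) and with no minimum share (0 called), and kept their call under the 5 other alternatives and without each sample, where the highest edgeR adjusted p was 0.0157; without knockdown replicate 1 the *Hnrnpa1* 544-nt intron was called too. With a pseudocount of 5, 1 transcript was 2-fold apart. The replicate block changed no other call.

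Directions of values that passed no test turned as follows. With the 5′ junction alone: *Hnrnpa1* 81-nt intron -0.50, *Hnrnpa2b1* 486-nt -0.073, *Hnrnpk* 567-nt -0.14, *Ptbp1* 1044-nt 0.74. With the 3′ junction alone: *Hnrnpd* 586-nt 0.095, *Hnrnph1* 488-nt -0.046, *Hnrnpk* 113-nt -0.13, *Ptbp1* 161-nt 0.39, *Hnrnpm* gene -0.034. With separate scaling: *Hnrnpa2b1* 90-nt -0.069, *Hnrnpk* 113-nt -0.10 and 567-nt -0.10, *Hnrnpm* gene -0.10. With limma: *Hnrnpk* 567-nt -0.0055. Spliced reads of *Hnrnpc* with the best covered intron: -0.0082 (fold change).

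Without 1 sample each, values that turned ranged, for introns, from -0.35 to 0.50 (*Hnrnpa1* 81-nt), -0.24 to 0.40 (*Hnrnpa2b1* 90-nt), -0.58 to 0.19 (*Hnrnpd* 586-nt), -0.52 to 0.87 (*Hnrnph1* 488-nt), -0.17 to 0.23 (*Hnrnpk* 113-nt), -0.21 to 0.21 (*Hnrnpk* 567-nt), -0.83 to 0.20 (*Hnrnpl* 2110-nt), -0.18 to 0.50 (*Hnrnpm* 6061-nt), -0.083 to 0.96 (*Ptbp1* 108-nt) and -0.23 to 0.21 (*Ptbp1* 161-nt). For genes they ranged from -0.14 to 0.0076 (*Hnrnph1*), -0.32 to 0.24 (*Hnrnpl*) and -0.25 to 0.29 (*Hnrnpm*). Fold changes of spliced reads ranged from -0.071 to 0.12 (*Hnrnpc*) and -0.010 to 0.060 (*Ptbp1*). The range of shallow introns, such as the *Hnrnpa1* 3′ UTR intron with 6 split reads, limits what their efficiency can show.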
